A study of Mus musculus with 9 samples.

Results

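Granulosa cells of gonadotropin-treated mice were compared 6 h after hCG with the same cell type before hCG. The comparison uses 6 of the 9 libraries of the series, 3 at 6 h and 3 at 0 h, and the 14535 genes of 25059 that reached 1 FPKM or more in at least 3 libraries. FPKM is a level that counts sequenced fragments relative to transcript length and library size. All libraries come from ovaries of Kunming mice at postnatal day 21, an outbred strain for which the labels give no genetic change. Mice of every group were first given PMSG (pregnant mare serum gonadotropin) at 5 IU. The 0 h libraries were taken 48 h after PMSG with no hCG. The 6 h libraries received 5 IU of hCG, human chorionic gonadotropin, at 48 h after PMSG and were taken 6 h later. A group of 3 libraries taken 1 h after hCG entered the same model and is otherwise not described. The series title names insight into ovulation as its aim.

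Granulosa cells line the ovarian follicle and nurse the oocyte. PMSG acts like follicle-stimulating hormone and drives their growth and oestrogen synthesis, and hCG acts on the luteinizing hormone receptor and starts ovulation. The cells then stop dividing, change from oestrogen to progesterone synthesis, remodel the follicle wall and turn into luteal cells.

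No label says whether the 3 libraries of a group came from separate animals or pools, so p-values refer to variation from library to library, possibly only technical. Untreated libraries of the later hour were not used here, so hCG action and the hour of sampling cannot be told apart. Library sums lay between 491920 and 495500 FPKM at 0 h and between 513434 and 539279 FPKM at 6 h, and the depth in reads is unknown. Across genes, which are not independent replicates, Pearson's r lay at 0.983 to 0.988 for libraries of one group, and at 0.874 to 0.902 for a 0 h library set against a 6 h library.

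The test called 8231 genes, 56.6% of those tested. At an adjusted p below 0.05 (limma on log2(FPKM + 1), Benjamini-Hochberg), 4180 genes were higher at 6 h, 28.8% of those tested, and 4051 were lower, 27.9%. The median log2 change of all tested genes was 0.00. Most calls were small, and 75.1% of them were below 2-fold on the log2(FPKM + 1) scale, which understates changes of low genes. A change of 2-fold or more was called higher for 1141 genes (7.85%) and lower for 910 (6.26%). The 3 libraries of either group did not overlap with those of the other for 8078 of the 8231 called genes. That count rests on the same libraries as the calls, so it adds no separate support. The share over all tested genes is not given, so remarks below that groups did not overlap describe the values and add no support. The share called was 45.4% for genes averaging under 2 FPKM, 65.7% for those between 20 and 100 FPKM and 59.0% for those above 100 FPKM.

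To see which kinds of protein lay behind these calls, 4117 tested genes were sorted into 120 classes by gene family, complex or pathway. A class is described below where it had at least 8 tested members and where its share called in a direction was at least 1.5 times the share of all tested genes. By that measure 32 classes leaned higher, 21 leaned lower and 63 did neither. Of the 53, 28 kept this margin in all 15 alternative analyses, 18 of them higher and 10 lower. Shares are descriptions of the lists, with no test of a class as a whole. A gene under 1 FPKM in 1 group could pass the filter through libraries of other groups, which ties its entry to its direction. Genes named first in a class are those with the largest change among called members at 5 FPKM or more in the higher group. Members that went against their class, and members named for a motif, a level or a contrast, were chosen after their values were seen.

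**Figure D1:**
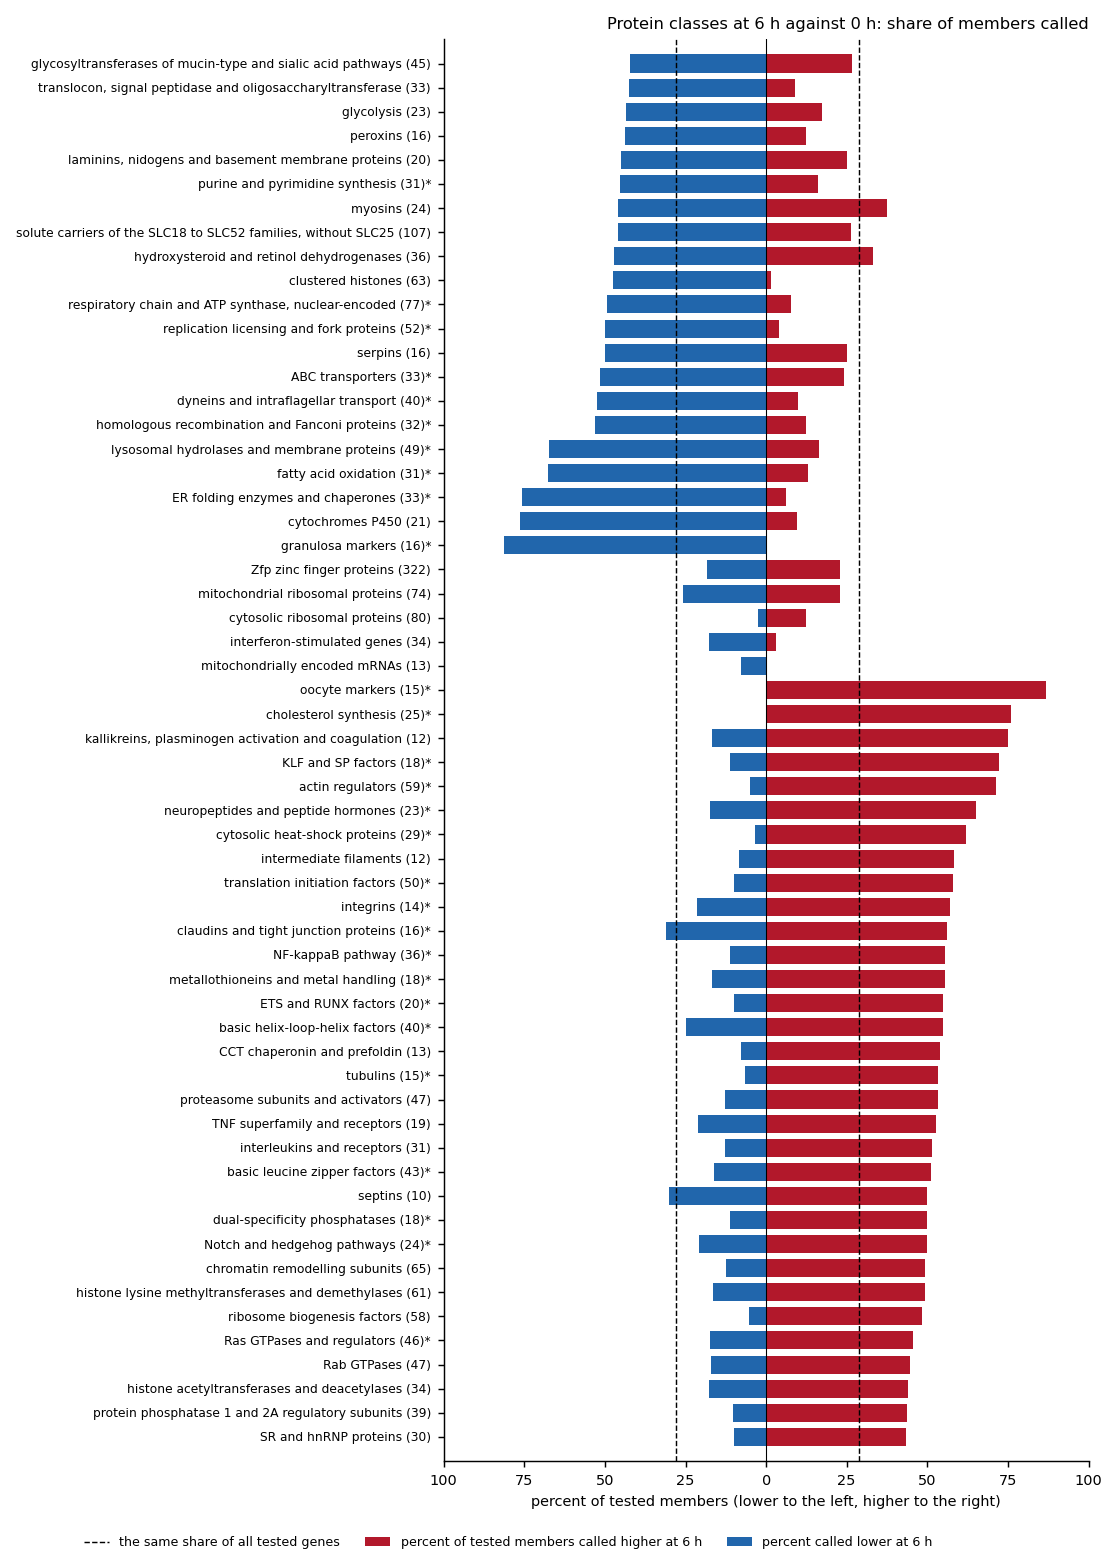
Share of tested members called higher (red, to the right) or lower (blue, to the left) at 6 h in each described class and in 5 classes near the background; the number of tested members is in parentheses, and dashed lines mark the shares of all tested genes (28.8% and 27.9%). A star marks the 28 classes that kept the margin in all 15 alternatives; cholesterol synthesis has 76.0% higher and none lower, ER folding proteins 75.8% lower.

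Marker lists describe which cells the libraries hold. All 16 granulosa markers were tested, and 13 were lower, 0 higher (median log2 change −1.38). Their summed level fell from 14100 to 15000 FPKM at 0 h to 5450 to 5870 FPKM at 6 h. *Inhbb*, an inhibin and activin subunit, had the largest change, at 1300, 1220 and 1200 FPKM at 0 h and 134, 107 and 110 FPKM at 6 h. *Cyp19a1*, the aromatase that makes oestrogen, read 197, 182 and 194 FPKM at 0 h and 23.1, 18.3 and 20 FPKM at 6 h. *Fshr*, the receptor for follicle-stimulating hormone, went from 93.0 ± 7.06 to 20.2 ± 0.861 FPKM (SD, n = 3). These genes are also regulated by the hormones given, and in bulk RNA fewer cells of a type and less RNA per cell cannot be told apart.

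Oocyte markers went the other way. Of 18 listed, 15 were tested and 13 were higher, 0 lower, with a median log2 change of 0.80, while *Ddx4*, *Figla* and *Sohlh1* stayed under 1 FPKM in all 6 libraries. The summed level was 63.4 to 93.3 FPKM at 0 h and 114 to 171 FPKM at 6 h, a ratio of the means of 1.86. *Gdf9*, an oocyte growth factor, read 16.2, 11.1 and 10.4 FPKM at 0 h and 19.7, 24.6 and 30.4 FPKM at 6 h. *Padi6*, a maternal-effect enzyme, had the largest change in the list (1.08 ± 0.20, SE), and its groups did not overlap. Genes whose transcripts are typical of oocytes, such as *Eif4e1b* below, move with this list, and its part in their change was not tested.

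At 0 h the leukocyte, endothelial and surface epithelium sums lay below the oocyte sum. The theca and stroma sum and the erythroid sum lay above it. Leukocyte markers summed to 31.8 to 53.5 FPKM at 0 h and 29 to 42.1 FPKM at 6 h, with 1 of 13 tested members higher and 1 lower. The pan-leukocyte marker *Ptprc* stayed under 1 FPKM in all 6 libraries, and the neutrophil marker *Ly6g* was listed at 0. Endothelial markers summed to 42.7 to 53.2 and 48.1 to 63.7 FPKM (4 of 12 higher), and surface epithelium markers to 39.5 to 44.4 and 38.1 to 45 FPKM (2 of 9 higher, 2 lower). The theca and stroma sum was lower, at 247 to 367 FPKM at 0 h and 157 to 188 FPKM at 6 h. Most of that fall came from *Cyp17a1*, described below, and 5 of 14 tested members were lower. Erythroid markers summed to 133 to 202 and 69.6 to 133 FPKM (2 of 4 lower).

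**Figure D2:**
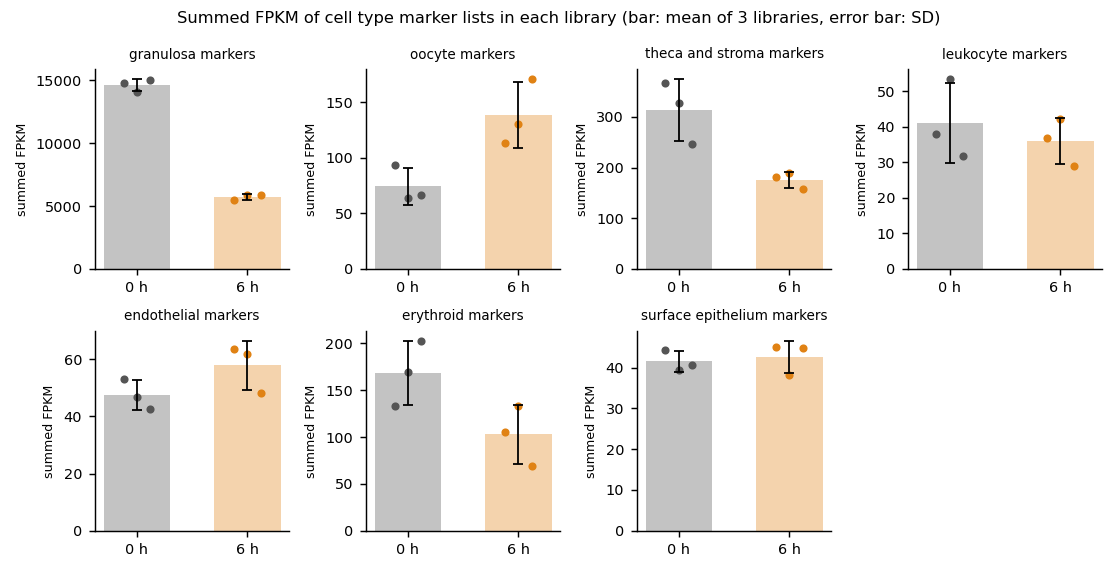
Summed FPKM of 7 marker lists in each of the 3 libraries at 0 h (grey) and 6 h (orange); bars are means and error bars SD. The granulosa sum is lower and the oocyte sum higher in every 6 h library than in any 0 h library, while leukocyte and surface epithelium sums overlap.

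Proteins that fold and inspect new chains in the endoplasmic reticulum (ER) mostly fell. Of 33 tested members 25 were lower and 2 higher, with a median log2 change of −0.48. Their summed level was 6577, 6322 and 6230 FPKM at 0 h and 4206, 4604 and 4421 FPKM at 6 h, with no overlap. *Derl3*, a pore protein for ER-associated degradation (ENSMUSG00000009092, chromosome 10, 75893413 to 75895941, mm10), read 28.5, 36.7 and 38.5 FPKM at 0 h and 6.84, 8.37 and 19.1 FPKM at 6 h (−1.63 ± 0.31, adjusted p = 0.00136). The replicate 3 library at 6 h lay closest to 0 h for this gene, and the groups stayed apart. *Sel1l*, its partner scaffold in the same degradation complex, was tight in both groups, with 103, 99.7 and 104 FPKM at 0 h against 41.1, 40.8 and 40.7 FPKM at 6 h. *Sdf2l1*, a cofactor of the chaperone BiP, changed by −1.26 ± 0.14 and *Manf*, a secreted ER stress protein, by −0.97 ± 0.11. The abundant chaperones moved less: *Hspa5*, which encodes BiP, went from 778 ± 12.4 to 536 ± 27.1 FPKM, *Calr* from 957 ± 40.6 to 595 ± 31.2 FPKM, and *Hsp90b1* from 1070 ± 48.4 to 700 ± 40.5 FPKM. The 2 members that rose belong to the degradation arm, *Derl1* (0.84) and its ubiquitin ligase *Syvn1* (0.32).

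ER chaperone genes are known to share a promoter motif, the ER stress element, CCAAT and CCACG set 9 bases apart, searched on both strands. RefSeq promoter windows (GRCm38.p6, 250 bases before to 50 after a start site) matched 28 of the 33 tested members by symbol. Of their 35 windows 9 held the motif (25.7%), against 19 of the 12646 windows of all tested genes (0.150%). The 9 genes were *Calr*, *Canx*, *Creld2*, *Derl3*, *Dnajc3*, *Hsp90b1*, *Hspa5*, *Pdia6* and *Syvn1*, of which 8 fell and 1 rose. In the whole class 25 of 33 fell and 2 rose, and a link of motif and direction was not tested. A match is a description of letters, not of a bound site. The 7 stretches of 60 bases that end before the RefSeq start site and overlap no GENCODE exon are printed here because 7 of the genes that fell share these letters, which are in capitals. They lie at chr10:75893221-75893280 (*Derl3*, + strand), chr15:88819499-88819558 (*Creld2*, +), chr8:84847055-84847114 (*Calr*, −), chr14:118937806-118937865 (*Dnajc3*, +), chr10:86705618-86705677 (*Hsp90b1*, −), chr12:17266470-17266529 (*Pdia6*, +) and chr11:50325780-50325839 (*Canx*, −).
Derl3: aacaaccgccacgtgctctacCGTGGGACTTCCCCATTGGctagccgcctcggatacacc
Creld2: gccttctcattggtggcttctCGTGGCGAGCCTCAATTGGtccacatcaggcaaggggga
Calr: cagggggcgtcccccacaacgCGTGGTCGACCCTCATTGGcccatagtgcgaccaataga
Dnajc3: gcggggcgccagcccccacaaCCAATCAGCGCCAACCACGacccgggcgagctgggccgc
Hsp90b1: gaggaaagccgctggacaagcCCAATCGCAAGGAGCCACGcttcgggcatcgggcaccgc
Pdia6: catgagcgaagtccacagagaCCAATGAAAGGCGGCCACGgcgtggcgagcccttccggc
Canx: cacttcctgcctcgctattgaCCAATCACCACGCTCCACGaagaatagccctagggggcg

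Neighbouring steps of the secretory pathway moved less evenly. Of 33 translocon, signal peptidase and oligosaccharyltransferase genes, which bring chains into the ER and attach sugars to them, 14 were lower and 3 higher (median −0.13). This class was not past the margin in 7 of 15 alternatives. *Rpn1*, an oligosaccharyltransferase subunit, had the largest fall, from 193, 177 and 189 FPKM to 83.8, 94.3 and 91.9 FPKM (−1.04 ± 0.09). The 3 that rose were all signal recognition particle genes, *Srp19* (0.52), *Srp68* (0.51) and *Srp9* (0.36). COPI and COPII coat genes, which build transport vesicles, showed 5 of 20 higher and 5 lower. Rab GTPases, which label membrane compartments, leaned higher with 21 of 47 higher and 8 lower (median 0.22), but were not past the margin in 8 of 15 alternatives. Among the abundant members *Rab31* (1.18 ± 0.11) and *Rab34* (1.13 ± 0.11) changed most.

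Lysosomal enzymes and membrane proteins, which digest material inside the cell, fell in most cases. Of 49 tested members 33 were lower and 8 higher, with a median log2 change of −0.57. The 3 largest decreases were glycosaminoglycan-degrading enzymes. *Naglu* (ENSMUSG00000001751, chromosome 11, 101070012 to 101077672) read 80.3, 77.9 and 82.8 FPKM at 0 h and 25.7, 23.4 and 25.8 FPKM at 6 h (−1.65 ± 0.09). *Sgsh* changed by −1.61 ± 0.10 and *Idua* by −1.56 ± 0.12. The 0 h and 6 h libraries did not overlap for any of the 3. The protease gene *Ctso* followed (−1.47 ± 0.13). The 8 members that rose included highly expressed genes, and the summed level did not fall. It was 2916, 3109 and 2970 FPKM at 0 h and 3149, 3115 and 2983 FPKM at 6 h, with overlap. Those 8 included *Cd63* (1.35), *Gla*, *Ctsc*, *Psap*, *Lgmn* and *Ctsl*. The cathepsin gene *Ctsl* had the highest level of the 8, 641 ± 91.8 and 838 ± 49.1 FPKM. The letters TCACGTGA, an E-box of lysosomal promoters, stood in 5 of 43 windows of these genes (11.6%) and in 1.80% of the windows of all tested genes. Of the 5 genes with it, 3 fell (*Ctsa*, *Ctsd*, *Mcoln1*), *Gla* rose and *Cln3* did not pass, beside 33 of 49 lower in the whole class. V-ATPase subunits, which acidify the lysosome, were near the background (6 of 18 higher, 4 lower), as was the autophagy machinery (15 of 38 higher, 7 lower).

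Chaperones outside the ER went the other way. Of 29 cytosolic and mitochondrial heat-shock proteins and co-chaperones 18 were higher and 1 lower (median 0.35). *Hsph1*, a nucleotide exchange factor for HSP70, read 21.9, 35.7 and 34.6 FPKM at 0 h and 75.4, 98.4 and 82.8 FPKM at 6 h (1.47 ± 0.19). *Bag3*, a co-chaperone of selective autophagy, changed by 1.25 ± 0.13, *Hspa4l* by 1.21 ± 0.10 and the small heat-shock gene *Hspb1* by 1.15 ± 0.22. The groups did not overlap for any of these 4. The member that fell was *Trap1* (−0.62), the HSP90 of mitochondria. Heat-shock elements, searched on both strands as 3 alternating units of GAA and TTC set 2 bases apart, stood in 6 of 31 windows of the class (19.4%) and in 0.490% of all windows of tested genes. The 4 genes with it were *Hsph1*, *Hspd1*, *Hspe1* and *Dnajb6*, and 3 of them rose, beside 18 of 29 in the whole class.

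The proteasome, which degrades ubiquitin-tagged proteins, leaned higher in small steps: 25 of 47 subunits and activators were higher and 6 lower, with a median log2 change of 0.23 and no member 2-fold higher. *Psmd4*, a ubiquitin receptor of the cap, read 69.5, 67.1 and 63.1 FPKM at 0 h and 101, 111 and 104 FPKM at 6 h (0.66 ± 0.08), and the cap ATPase gene *Psmc6* followed (0.57 ± 0.07). Under quantile normalization 16 of the 47 were higher. The largest decrease was the interferon-inducible immunoproteasome subunit *Psmb9* (−1.10 ± 0.23). Folding machines for actin and tubulin, CCT and prefoldin, showed 7 of 13 higher and 1 lower (median 0.20), 4 of them among the 7 CCT subunits. That count was 3 after scaling to the mean sum, 4 under quantile normalization and 4 without 0 h replicate 3. *Cct5* read 110, 107 and 103 FPKM at 0 h and 147, 151 and 146 FPKM at 6 h. *Pfdn4* changed more (0.62 ± 0.10), but only by 0.20 (adjusted p = 0.368) when its most abundant row alone was used.

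**Figure D3:**
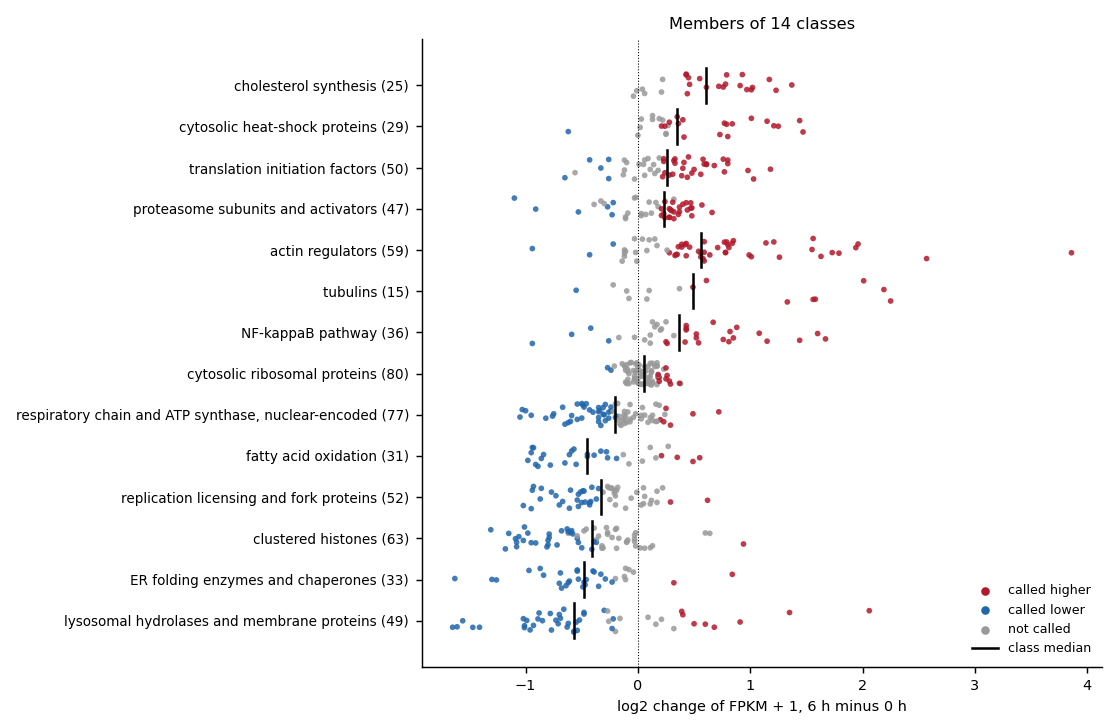
Log2 change of FPKM + 1 (6 h minus 0 h, x axis) of every tested member of 14 classes; red points were called higher, blue points lower and grey points neither, and black bars are class medians. Cholesterol synthesis has no blue point, cytosolic ribosomal proteins stay within −0.27 to 0.38, and ER folding and lysosomal proteins lie mostly to the left.

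Factors that start protein synthesis mostly rose. Of 50 translation initiation factors and their regulators 29 were higher and 5 lower (median 0.26), and their summed level went from 2891, 2847 and 2819 FPKM to 3739, 3876 and 3796 FPKM. *Eif4e1b*, an oocyte form of the cap-binding protein, had the largest change of the class (1.18 ± 0.24) at 4.11 to 6.20 FPKM at 0 h and 10 to 15.6 FPKM at 6 h, in step with the oocyte markers. *Eif5*, the activator of the initiating GTPase, read 60.4, 58.4 and 59.4 FPKM at 0 h and 124, 126 and 117 FPKM at 6 h (1.03 ± 0.07). *Eif1*, which guards start codon choice, went from 162, 161 and 157 FPKM to 302, 324 and 324 FPKM (0.98 ± 0.07). Both were tight and far apart. The 5 that fell were *Eif4a2* and *Eif2d*, the non-canonical factor *Eif2a*, and the stress kinases *Eif2ak3* (−0.65 ± 0.10), which is the ER stress sensor PERK, and *Eif2ak4*.

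Cytosolic ribosomal protein genes, by contrast, held 10 of 80 higher and 2 lower, shares under the background, with changes between −0.27 and 0.38. Their sum was 42670 ± 1120 FPKM at 0 h and 44110 ± 2510 FPKM at 6 h. Mitochondrial ribosomal protein genes were split, with 17 of 74 higher and 19 lower. Ribosome biogenesis factors leaned higher (28 of 58 higher, 3 lower, median 0.22), led by *Ebna1bp2* (0.55 ± 0.09) and *Bop1* (0.53 ± 0.09). Their count was 13 after scaling to the mean sum, 17 without 0 h replicate 3 and 18 without 6 h replicate 2, and the class was not past the margin in 8 of 15 alternatives. The 3 that fell, *Nop10*, *Nhp2* and *Dkc1*, encode subunits of the same particle, the H/ACA complex that modifies ribosomal RNA.

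Aminoacyl-tRNA synthetases, which load amino acids on tRNA, divided by compartment. As a whole 13 of 37 were higher and 10 lower. Of the 17 with a gene name ending in 2, the mitochondrial forms, 9 were lower and 0 higher (median −0.32). Of the other 20, which are cytosolic or shared, 13 were higher and 1 lower (median 0.33). *Cars*, the cysteine enzyme, had the largest rise, from 11.8 ± 1.21 to 31.0 ± 2.02 FPKM. The split by name was made after the values were seen, and the difference between the 2 sets was not tested. SR and hnRNP splicing factors showed 13 of 30 higher and 3 lower, with a median of 0.15, and were not past the margin in 9 of 15 alternatives. *Hnrnpll* changed most (0.66 ± 0.07).

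Cholesterol synthesis was the most one-sided metabolic pathway. Of 25 tested members 19 were higher and 0 lower, with a median log2 change of 0.61, and the summed level went from 1731, 1612 and 1491 FPKM to 2726, 2691 and 2614 FPKM. Cholesterol is the substrate of progesterone. *Cyp51*, the sterol demethylase (ENSMUSG00000001467, chromosome 5, 4081145 to 4104746), read 55.9, 54.3 and 51.9 FPKM at 0 h and 142, 150 and 132 FPKM at 6 h (1.37 ± 0.11). *Idi1*, which isomerizes the isoprenoid unit, changed by 1.23 ± 0.10, *Insig1*, the sterol-sensing retention protein, by 1.17 ± 0.06, and *Lss*, which closes the sterol rings, by 1.02 ± 0.12. The libraries of both groups lay apart for all 4. The 6 members that did not pass included *Fdft1* (0.06). The sterol regulatory element TCACNCCAC stood in 1 of 21 windows of the class (4.76%) and in 1.22% of windows of all tested genes. It lies in the *Hmgcs1* promoter at chr13:119690188-119690247 (+ strand, GRCm38.p6), shown for the only member with a match.
Hmgcs1: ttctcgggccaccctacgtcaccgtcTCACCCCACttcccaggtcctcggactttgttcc

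Fatty acid oxidation, which feeds the mitochondrion, fell. Of 31 fatty acid oxidation genes 21 were lower and 4 higher (median −0.45). *Eci1*, an isomerase for unsaturated chains, read 20.1, 19.3 and 18.9 FPKM at 0 h and 11, 9.07 and 8.20 FPKM at 6 h. *Hadh*, the short-chain dehydrogenase of the cycle, read 66.8, 66.4 and 63.3 FPKM at 0 h and 36.3, 32.0 and 32.1 FPKM at 6 h. The 4 that rose included *Acadm* (0.55), a dehydrogenase of the cycle, *Cpt1a* (0.49), which admits fatty acids to the mitochondrion, and *Hsd17b4* (0.21), which acts in peroxisomes. Peroxins, which build peroxisomes, showed 7 of 16 lower and 2 higher, and were not past the margin in 5 of 15 alternatives.

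Nuclear-encoded genes of the respiratory chain and ATP synthase fell in 38 of 77 cases and rose in 6, with a median of −0.20. Most of these decreases were in NADH dehydrogenase, complex I. There 26 of 36 genes with an *Nduf* name were lower and 1 higher, with a median of −0.33. In the cytochrome c oxidase set (*Cox* names) 2 of 12 were lower and 1 higher, in the *Uqcr* set 2 of 8 were lower and 2 higher, and in the *Atp5* set 7 of 17 were lower and 2 higher. These subsets were formed after the values were seen, and their differences were not tested. *Ndufv3* read 84.6, 78.2 and 64.0 FPKM at 0 h and 41.1, 37.9 and 32.5 FPKM at 6 h. *Cox7a1* had a larger mean change (−1.03 ± 0.31), but its groups overlapped. It no longer passed in limma's test when 0 h replicate 3 was left out (−0.92, adjusted p = 0.0554) or when 6 h replicate 3 was (−0.70, adjusted p = 0.0512). The 13 messages encoded in mitochondrial DNA showed 0 higher and 1 lower, at a sum of 62010 ± 2410 FPKM at 0 h and 58150 ± 3240 FPKM at 6 h.

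Glycolysis and lactate transport had 10 of 23 members lower and 4 higher (median −0.16). The class was not past the margin in 2 of 15 alternatives, both with 1 library left out. The lactate carrier *Slc16a1* read 72.1, 61.7 and 70.3 FPKM at 0 h and 20.6, 19.2 and 21.8 FPKM at 6 h (−1.68 ± 0.12), and the muscle-type phosphofructokinase *Pfkm* changed by −1.46 ± 0.13. The 4 that rose were *Pfkfb4* (2.10 ± 0.11) and *Pfkfb3* (0.98), which make the activator of phosphofructokinase, *Eno2* (1.97) and the glucose carrier *Slc2a1* (0.81). Of 31 purine and pyrimidine synthesis genes 14 were lower and 5 higher. *Dut*, which removes dUTP, went from 34.7, 40.4 and 35.4 FPKM to 13.6, 20.4 and 20.5 FPKM, and *Prps2*, which starts purine synthesis, changed by −0.99 ± 0.16. Against that direction, both CTP synthase genes rose, *Ctps* from 26.3 ± 2.77 to 114 ± 11.6 FPKM (2.07 ± 0.12) and *Ctps2* by 0.97.

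Of 18 metal-binding and metal transport genes 10 rose and 3 fell. The metallothionein *Mt2*, which binds zinc and copper, read 90.5, 99.1 and 68.4 FPKM at 0 h and 545, 759 and 657 FPKM at 6 h (2.92 ± 0.16), and *Mt1* 216, 231 and 179 FPKM against 478, 688 and 628 FPKM. The iron carrier transferrin, *Trf*, was uneven at 6 h, with 27.9, 32.5 and 12.2 FPKM against 3.71 to 4.89 FPKM at 0 h. *Slc39a14*, a zinc and iron importer, was tight (14.2, 14.7 and 13.4 FPKM against 47.2, 49.1 and 49.9 FPKM). The 3 that fell were the iron exporter *Slc40a1* and the copper transporters *Slc31a1* and *Atp7a*. Metal response elements, TGCGCNC or TGCACNC on either strand, stood in 7 of 19 windows of the class (36.8%), near the 35.2% of windows of all tested genes.

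**Figure D4:**
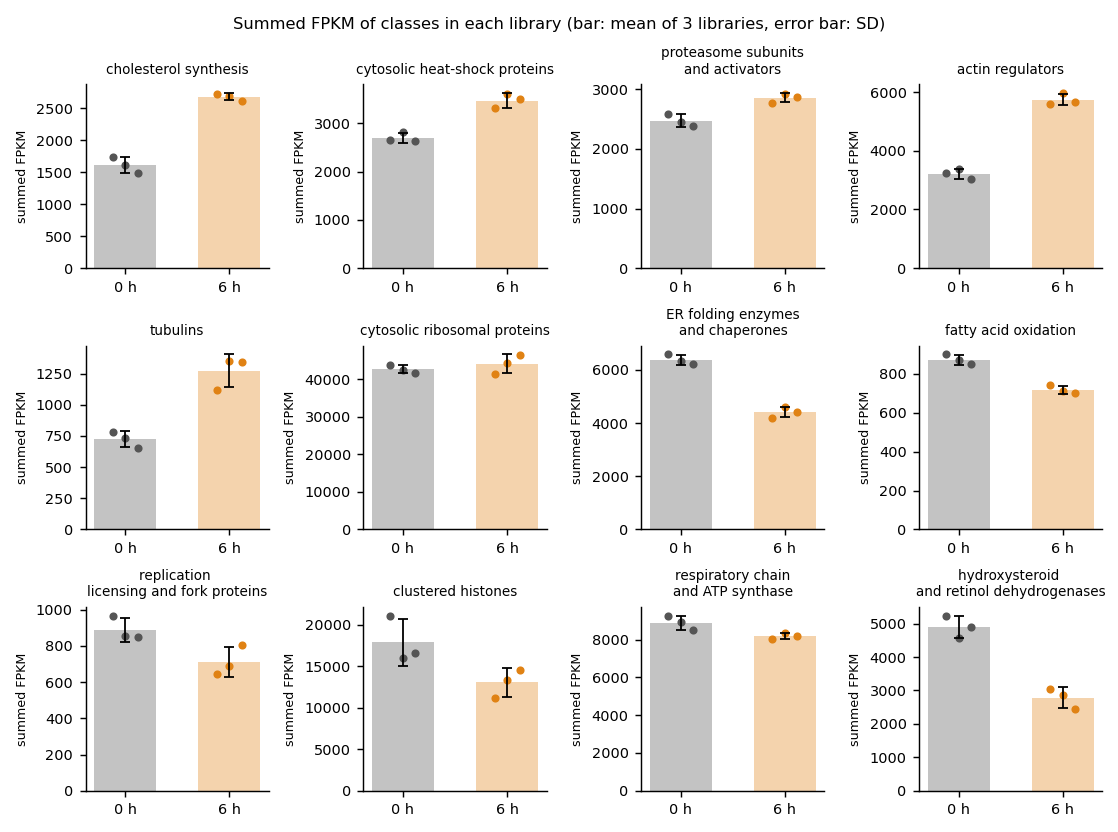
Summed FPKM of 12 classes in each of the 3 libraries at 0 h (grey) and 6 h (orange), with means as bars and SD as error bars. The sums of cholesterol synthesis, heat-shock, actin and tubulin genes are higher in every 6 h library, those of ER folding and fatty acid oxidation genes are lower, and cytosolic ribosomal protein sums overlap.

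Steroid enzymes moved in both directions. Cytochromes P450, without *Cyp51*, which rose and is counted with cholesterol synthesis, had 16 of 21 members lower and 2 higher (median −0.57). With a filter of 5 FPKM, which left 9 members, 6 were lower. Besides *Cyp19a1*, *Cyp17a1*, the androgen-making enzyme of theca cells, fell from 158, 115 and 95.1 FPKM to 22.3, 26.8 and 16.7 FPKM. It is itself a member of the theca and stroma list, whose mean sum at 6 h was 0.559 times that at 0 h. Most of the fall in that sum came from *Cyp17a1*, so the sum is no separate measure of theca content. The part of fewer theca cells in the change of *Cyp17a1* was not tested. The 2 of the 21 that rose were *Cyp11b1* (1.20) and *Cyp11a1*, which makes pregnenolone from cholesterol (0.49). Hydroxysteroid, aldo-keto and retinol dehydrogenases were split, with 17 of 36 lower and 12 higher. *Akr1c14*, a 3-alpha-hydroxysteroid dehydrogenase, read 271, 268 and 345 FPKM at 0 h and 31.2, 25.8 and 31.2 FPKM at 6 h (−3.28 ± 0.13). *Akr1c13* (−2.46 ± 0.30) and the oestradiol-forming *Hsd17b1* (−2.27 ± 0.09) followed. The aldose reductase relative *Akr1b7* had the largest rise of the class, from 0.753, 0.655 and 0.356 FPKM to 35.2, 42.5 and 35.2 FPKM (4.61 ± 0.25).

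The machinery of DNA replication was lower, with 26 of 52 licensing and fork genes lower and 2 higher (median −0.33). *Mcm3* and *Mcm6*, subunits of the replicative helicase, and *Pola1*, the primase-bound polymerase, were the leading cases. *Mcm3* read 44.5, 37.4 and 36.4 FPKM at 0 h and 16.2, 16.5 and 25 FPKM at 6 h (−1.02 ± 0.17), and *Pola1* 17.0, 15 and 16.4 FPKM against 7.35, 7.10 and 9.25 FPKM. For both genes the replicate 3 library at 6 h was the nearest to 0 h, and the groups did not overlap. Of the 8 *Mcm* genes 5 were lower and 0 higher. The 2 that rose were *Gins2* (0.62) and *Rfc5* (0.29). E2F sites, TTTGGCGC or TTTCCCGC on either strand, stood in 15 of 56 windows of the class (26.8%) and in 2.79% of windows of all tested genes. Of the 15 genes with a site, 7 fell and 0 rose, a share near that of the whole class (26 of 52 lower). The sites of *Mcm6* (chr1:128359782-128359841, − strand) and *Pola1* (chrX:93632260-93632319, − strand, GRCm38.p6) are shown for 2 of the genes that fell, with the motif in capitals.
Mcm6: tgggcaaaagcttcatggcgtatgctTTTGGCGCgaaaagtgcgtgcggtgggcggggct
Pola1: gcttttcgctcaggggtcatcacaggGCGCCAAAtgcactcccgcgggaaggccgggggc

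DNA repair by homologous recombination and the Fanconi pathway followed, with 17 of 32 lower and 4 higher (median −0.44). *Fanca*, a core member of the Fanconi complex (ENSMUSG00000032815, chromosome 8, 123268300 to 123318576), read 18.2, 18.1 and 18.6 FPKM at 0 h and 4.73, 4.83 and 6.88 FPKM at 6 h (−1.59 ± 0.17). *Brca2*, a mediator of recombination, changed by −1.05 ± 0.10, while its partner *Brca1* rose from 10.4 ± 0.390 to 16.9 ± 1.4 FPKM (0.66). The other 3 that rose were *Xrcc3*, *Rad54l2* and *Mus81*. Clustered histone genes, whose messages are made in S phase and mostly lack a poly(A) tail, had 30 of 63 lower and 1 higher (median −0.41). Their sum was 21090, 15960 and 16590 FPKM at 0 h and 11200, 13340 and 14610 FPKM at 6 h, lower in every 6 h library. Near-identical histone genes can share reads, so single members such as *Hist1h2ak* (−1.31 ± 0.16) are uncertain. Mitotic kinases and cyclins (12 of 40 lower, 5 higher) and kinetochore proteins (15 of 38 lower, 6 higher) did not reach the margin.

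Actin regulators had the most members higher of any described class that leaned higher. Of 59 tested members 42 were higher and 3 lower, 13 of them higher by 2-fold or more, with a median log2 change of 0.56. Their sum went from 3241, 3379 and 3037 FPKM to 5603, 5964 and 5654 FPKM. *Tagln2*, an actin-bundling protein (ENSMUSG00000026547, chromosome 1, 172500047 to 172507380), read 15.4, 17.5 and 10.1 FPKM at 0 h and 222, 227 and 202 FPKM at 6 h (3.86 ± 0.16). *Tmsb4x*, which binds actin monomers, read 72.2, 91.8 and 56.2 FPKM at 0 h and 412, 452 and 432 FPKM at 6 h (2.57 ± 0.16). *Cotl1*, a coactosin, changed by 1.96 ± 0.08 and the filamin *Flnc*, a crosslinker, by 1.94 ± 0.11. The 3 that fell were *Tln2*, *Cnn2* and *Coro1b*. CArG boxes, the motif of serum response factor, stood in 4 of 61 windows of the class (6.56%) and in 1.27% of windows of all tested genes. Of the 4 genes with one, 2 rose and 1 fell, beside 42 of 59 higher and 3 lower in the whole class.

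Other filament systems rose as well. Of 15 tubulins 8 were higher and 1 lower (median 0.49), led by *Tubb6*, at 10.6, 9.46 and 5.70 FPKM at 0 h and 39.5, 46.8 and 43.8 FPKM at 6 h, and *Tuba1c* (2.19 ± 0.12). Of 12 intermediate filament genes 7 were higher and 1 lower; the nuclear lamin *Lmna* read 17.9, 19.0 and 14.5 FPKM against 87.5, 89.5 and 101 FPKM, and vimentin, *Vim*, 128, 132 and 95.1 FPKM against 426, 484 and 467 FPKM. With no filter on low values 12 of 44 filament genes were higher, and with a filter of 5 FPKM 4 of 6. The member that fell was the epithelial keratin *Krt8* (−0.42). Septins had 5 of 10 higher and 3 lower, or 3 higher when the most abundant row alone was used. *Sept9* (0.68 ± 0.11) changed direction in that setting (−0.23, adjusted p = 0.378).

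Genes of transport in cilia mostly fell. Dyneins and intraflagellar transport genes had 21 of 40 lower and 4 higher (median −0.42). *Dync2li1*, a chain of the ciliary dynein, read 9.73, 9.17 and 9.09 FPKM at 0 h and 2.86, 1.71 and 3.15 FPKM at 6 h (−1.56 ± 0.15), and *Ift88*, an essential part of the cilium-building train, 8.70, 8.55 and 9.22 FPKM against 2.94, 2.77 and 2.90 FPKM (−1.34 ± 0.08). Of 14 *Ift* genes 9 were lower, and of 8 *Bbs* genes, which sort ciliary cargo, 6 were lower, with 0 higher in either set. All 4 that rose, *Dync1i2*, *Dynll1*, *Dync1li2* and *Dync1li1*, encode chains of cytoplasmic dynein 1, and among the 13 genes with *Dync1* or *Dynl* names 1 was lower. Kinesins, which move cargo outward along microtubules, were near the background (8 of 34 higher, 10 lower, median −0.10). These subsets were also formed after the values were seen. Myosins were mixed, with 11 of 24 lower and 9 higher. *Myo6*, which walks to the minus end of actin, fell most (−1.87 ± 0.11).

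Adhesion molecules were rearranged. Of 14 integrins 8 were higher and 3 lower, or 5 of 10 higher with a filter of 5 FPKM. *Itga2*, a collagen receptor chain (ENSMUSG00000015533, chromosome 13, 114833081 to 114932100), read 21.6, 22.4 and 22.6 FPKM at 0 h and 215, 234 and 186 FPKM at 6 h (3.19 ± 0.15), and *Itga5*, the fibronectin receptor chain, 14.5, 15.4 and 12.9 FPKM against 61.9, 69.8 and 63.8 FPKM (2.12 ± 0.09). The 3 that fell were *Itga9* and the laminin receptor chains *Itga6* and *Itga3*. Claudins and tight junction genes were 9 of 16 higher and 5 lower. *Cldn1* rose from 0.615, 0.452 and 0.294 FPKM to 8.07, 9.96 and 10.6 FPKM, and the junction scaffold *Cgn* by 1.60 ± 0.08. Basement membrane genes had 9 of 20 lower and 5 higher. *Lama4* fell from 32.3, 23.5 and 30.0 FPKM to 9.86, 8.99 and 8.42 FPKM (−1.54 ± 0.14), while the 5 that rose were *Lamb1*, *Hspg2*, *Lama5*, *Nid1* and *Lamc1*, all by 0.50 or less.

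Clotting and plasminogen activation genes had the largest median of any class with a net increase, 1.48, with 9 of 12 tested members higher and 2 lower. *Procr*, the endothelial protein C receptor (ENSMUSG00000027611, chromosome 2, 155751117 to 155755471), read 6.03, 5.11 and 5.07 FPKM at 0 h and 104, 122 and 72.5 FPKM at 6 h (3.94 ± 0.16). Tissue factor, *F3*, which starts clotting, read 3.60, 4.79 and 4.26 FPKM against 29.6, 30.4 and 17.3 FPKM. The urokinase gene *Plau* read 39.7, 38.9 and 36.4 FPKM against 170, 193 and 122 FPKM. In all 3 genes the replicate 3 library was the lowest of the 6 h group and still above every 0 h library. The urokinase receptor *Plaur* changed by 2.23 ± 0.12. The 2 that fell were *Tfpi*, which blocks tissue factor (−0.87 ± 0.13), and *Pros1* (−0.21). Members were not sorted into those that promote and those that inhibit clotting. Serpins, a family of protease inhibitors, had 8 of 16 lower and 4 higher and were not past the margin in 5 of 15 alternatives. *Serpina3a* fell from 225, 201 and 226 FPKM to 52.9, 54.0 and 35.8 FPKM, and the 4 that rose, *Serpinb1a*, *Serpinb2*, *Serpinb9* and *Serpinb6a*, are all of the intracellular clade B.

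Of 51 neuropeptide and peptide hormone genes in the series, 23 passed the filter and were tested. Of these, 15 were higher, 12 of them by 2-fold or more, and 4 lower (median 1.39). With a filter of 5 FPKM 9 of 13 were higher. That filter too admits genes through libraries taken after hCG, so this count gives no separate support. Neurotensin, *Nts*, rose from 0 to 0.243 FPKM in the 0 h libraries to 635, 740 and 671 FPKM, neuropeptide Y, *Npy*, from values listed at 0 to 53.5, 66.4 and 97.7 FPKM, and neuromedin U, *Nmu*, from 0.104 to 0.381 FPKM to 43.5, 51.6 and 41.8 FPKM. All 3 genes were under 1 FPKM in every 0 h library, so they passed the filter only through libraries taken after hCG. Their entry and their direction are therefore tied. Of the 4 that fell, *Nppc*, the natriuretic peptide that keeps the oocyte in meiotic arrest, changed most (−4.06), ahead of *Nmb* (−1.23), *Scg5* and *Nucb2*.

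Interleukins and their receptors were 16 of 31 higher and 4 lower. *Il1rl2*, the receptor of interleukin-36, read 2.67, 3.83 and 2.10 FPKM at 0 h and 33.8, 38.4 and 35.6 FPKM at 6 h (3.28 ± 0.18), and *Clcf1*, a cytokine of the interleukin-6 family, changed by 2.38 ± 0.19. The count was 7 of 15 with a filter of 5 FPKM and 10 of 28 with the most abundant row alone. TNF family genes were 10 of 19 higher and 4 lower. *Tnfrsf12a*, the receptor of TWEAK, went from 21.6, 21.7 and 13 FPKM to 186, 210 and 188 FPKM (3.34 ± 0.16). That count was 6 of 9 with a filter of 5 FPKM and 6 of 16 after scaling to the mean sum. The summed leukocyte markers, given above, overlapped between the groups, and the integrin chain *Itgax* was the 1 marker that rose. Interferon-stimulated genes showed 1 of 34 higher and 6 lower.

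Notch and hedgehog genes, which carry signals between neighbouring cells, were 12 of 24 higher and 5 lower, with members on both sides. The hedgehog-binding inhibitor *Hhip* rose from 0.892, 0.599 and 0.713 FPKM to 14.6, 12.5 and 19.8 FPKM (3.24 ± 0.19), while the hedgehog ligands *Ihh* (64.9, 73.9 and 71.9 FPKM against 9.55, 6.12 and 14.6 FPKM) and *Dhh* (−2.0) fell. The Notch ligand *Jag1* (2.83 ± 0.12) and the receptor *Notch2* (23.6, 24.3 and 24.2 FPKM against 109, 132 and 126 FPKM) rose. Among Notch effectors *Heyl* rose (1.68 ± 0.15), and *Hey2* (−1.65) and the DNA-binding partner *Rbpj* (−0.69) fell. The other member that fell was *Smo*, the signal transducer of hedgehog (−0.25).

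Several classes of signalling regulators leaned higher. Dual-specificity phosphatases were taken by gene name, and only some of them switch off MAP kinases. Of 18 tested, 9 were higher and 2 lower, or 5 of 10 higher with a filter of 5 FPKM. Among those at 5 FPKM or more, *Dusp6*, which acts on ERK, read 9.28, 12.3 and 7.01 FPKM at 0 h and 51.7, 58.9 and 40.7 FPKM at 6 h (2.30 ± 0.22), and *Dusp5* changed by 1.58 ± 0.16. Ras GTPases and their regulators were 21 of 46 higher and 8 lower. *Rras2*, a Ras relative, read 11.8, 11.4 and 11.8 FPKM against 69.3, 84.7 and 89.8 FPKM, and the Ras-inactivating *Rasal1* (2.15 ± 0.20) and the inhibitor *Spry4* (1.38 ± 0.13) also rose. NF-kappaB pathway genes were 20 of 36 higher and 4 lower (median 0.37). *Bcl3*, a nuclear IkB protein, changed by 1.67 ± 0.21, and *Nfkbia*, the inhibitor that retains NF-kappaB in the cytoplasm, read 18.1, 21.3 and 19.2 FPKM against 61.9, 62.4 and 59.3 FPKM. The 4 that fell were *Ikbke*, *Birc2*, *Cyld* and *Traf4*. Regulatory subunits of protein phosphatases 1 and 2A were 17 of 39 higher and 4 lower, led by *Ppp1r13b* (2.11 ± 0.10), and were not past the margin in 5 of 15 alternatives.

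Families of transcription factors had different shares. KLF and SP factors, which bind GC-rich promoters, were 13 of 18 higher and 2 lower (median 0.50). *Klf13* read 9.17, 14 and 9.81 FPKM at 0 h and 36.6, 42.2 and 41.7 FPKM at 6 h, and *Klf3* changed by 1.45 ± 0.11. Leucine zipper factors were 22 of 43 higher and 7 lower. *Cebpb*, required for luteal differentiation, was the most variable, with 142, 198 and 466 FPKM at 6 h against 16.6 to 29.5 FPKM at 0 h. *Nfil3*, a circadian repressor, was tight, with 4.73, 4.48 and 5.01 FPKM against 59.3, 59.9 and 54.3 FPKM (3.36 ± 0.09). Its antagonists of the PAR group, *Tef* (−1.08) and *Dbp* (−0.95), were among the 7 that fell. Helix-loop-helix factors were 22 of 40 higher and 10 lower. The abundant members with the largest rise were *Twist1* (2.27 ± 0.19), the clock repressor *Bhlhe40* (1.68 ± 0.24), *Mxi1* (1.46 ± 0.11) and the clock activator *Arntl* (1.20 ± 0.11). Clock genes change with the hour, which cannot be told apart from time after hCG here.

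ETS and RUNX factors were 11 of 20 higher and 2 lower. *Runx1*, whose product is induced by luteinizing hormone, read 16.6, 21.3 and 13.7 FPKM at 0 h and 374, 387 and 343 FPKM at 6 h (4.36 ± 0.16), and *Runx2* 48.7, 52.3 and 27.8 FPKM against 345, 395 and 378 FPKM. The largest family of all, zinc finger genes with a *Zfp* name, lay under the background, with 74 of 322 higher and 59 lower. Nuclear receptors were 11 of 33 higher and 12 lower. Chromatin remodelling subunits were 32 of 65 higher and 8 lower (median 0.19). *Baz1a*, of the ACF remodeller, read 9.41, 11.7 and 11.5 FPKM against 54.0, 73.8 and 68.8 FPKM (2.48 ± 0.15), and *Smarcd3* changed by 1.93 ± 0.10. Histone lysine methyltransferases and demethylases were 30 of 61 higher and 10 lower, with no change of 2-fold or more in either direction. They were not past the margin in 4 of 15 alternatives, among them scaling to the mean sum and quantile normalization. The demethylase *Kdm6b* (0.87 ± 0.11) and the methyltransferase *Setd7* (0.77 ± 0.13) were the first 2 by the naming rule. Histone acetyltransferases and deacetylases were 15 of 34 higher and 6 lower, led by *Hdac7* (1.07 ± 0.14) and *Hdac5* (1.00 ± 0.13). This class was not past the margin in 3 of 15 alternatives, again including both of these settings.

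Membrane transporters and sugar-adding enzymes leaned lower with strong exceptions. Of 107 solute carriers of the SLC18 to SLC52 families 49 were lower and 28 higher (median −0.22). *Slc24a4*, a calcium exchanger, read 10.2, 10.6 and 17.0 FPKM at 0 h and 0.862, 0.978 and 1.01 FPKM at 6 h. The prostaglandin carrier *Slco2a1* rose most in that class, from 3.03 ± 0.436 to 34 ± 3.27 FPKM. Of 33 ABC transporters 17 were lower and 8 higher, with *Abca4* lowest (−2.46 ± 0.19) and the cholesterol exporter *Abca1* highest (2.14 ± 0.12). Of 45 mucin-type and sialic acid glycosyltransferases 19 were lower and 12 higher, and the class was not past the margin in 7 of 15 alternatives. Sialyltransferases moved both ways. *St3gal4* went from 449, 439 and 589 FPKM to 87.3, 83.2 and 90.8 FPKM and *St3gal5* from 204, 193 and 192 FPKM to 43.6, 42.0 and 44.0 FPKM, while *St3gal1* rose from 4.17, 5.64 and 3.65 FPKM to 44.7, 44.1 and 38.6 FPKM. *Slco2a1*, *Abca1* and *St3gal1* were singled out after their values were seen.

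Across all called genes at 5 FPKM or more in the higher group, with well-known ovulatory markers and provisional gene names left out and groups that did not overlap, the 12 largest increases and 12 largest decreases spanned many functions. Among the markers left out and named above, *Nts* (9.25) and *Npy* (6.16) rose more than any gene of these lists, and *Nppc* (−4.06) fell more. A larger rise, 9.67, was in the sulfotransferase and glucuronosyltransferase class, which had 5 tested members and is not described. In the lists, the highest after the neuropeptides *Nmu* and *Adcyap1* was the leptin receptor *Lepr*, at 0.637, 0.448 and 0.349 FPKM at 0 h and 43.5, 57.6 and 47.8 FPKM at 6 h (5.09 ± 0.13). The ubiquitin ligases *Rnf180* and *Rnf125* came next; *Rnf180* read 7.46, 7.28 and 7.41 FPKM against 246, 256 and 228 FPKM. The X-linked homeobox gene *Rhox8* read 14.5, 15.7 and 17.7 FPKM against 441, 438 and 493 FPKM, and the chemokine receptor *Cxcr4* 8.86, 14.6 and 9.78 FPKM against 312, 349 and 287 FPKM. *Akr1b7*, the small GTPase *Rnd3* (4.50 ± 0.10), the adhesion molecule *Alcam* (4.48 ± 0.22), the EGF receptor inhibitor *Errfi1* (4.36 ± 0.11) and the chromatin protein *Hmga1* (4.19 ± 0.19) completed the list. *Nmu*, *Adcyap1*, *Lepr* and *Akr1b7* were under 1 FPKM in every 0 h library, which ties their entry to their direction.

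By the same rule the largest decrease was *Mro*, at 94.8, 99.7 and 173 FPKM at 0 h and 8.87, 7.16 and 5.85 FPKM at 6 h (−3.86 ± 0.21), ahead of *Akr1c14*. The membrane protease *Tmprss13* (−3.09 ± 0.17), the 2-oxoglutarate dehydrogenase relative *Ogdhl* (−3.00 ± 0.17) and *Smim10l2a* (−2.99 ± 0.09) followed. *Adam3* was spread at 0 h, with 5.39, 3.57 and 16.5 FPKM, and under 0.1 FPKM at 6 h; with its most abundant row alone the change did not pass (−2.38, adjusted p = 0.0718). *Slfn4*, *Slc24a4*, *Ihh* and the pseudokinase *Trib2* were next, and *Trib2* read 252, 218 and 277 FPKM against 42.1, 32.8 and 36.8 FPKM. The phosphoinositide kinase *Pik3cg* (−2.67 ± 0.17) and the potassium channel subunit *Kcne2* (−2.61 ± 0.16) closed the list.

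**Figure D5:**
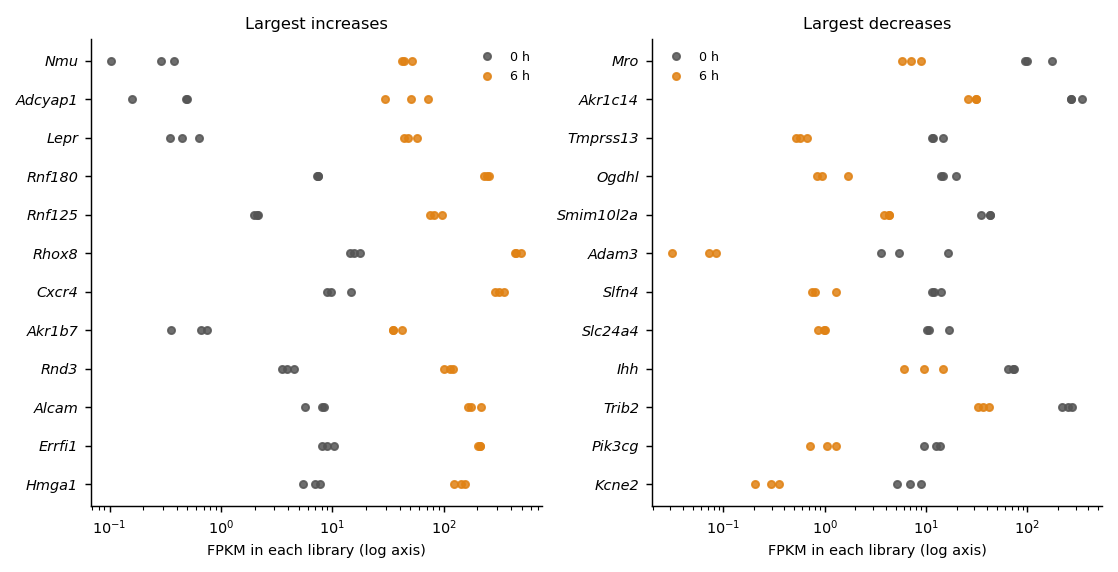
FPKM (log axis) of the 12 genes with the largest increase (left) and the 12 with the largest decrease (right), without ovulatory markers and provisional gene names, in each of the 3 libraries at 0 h (grey) and 6 h (orange). The groups do not overlap for any of the 24 genes, which the rule for choosing them required.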

How the data were processed

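RNA of granulosa cells was sequenced in 9 libraries, 3 at each of 0 h, 1 h and 6 h after hCG. Per the labels' protocols, total RNA was extracted with Trizol and 1 µg entered a TruSeq RNA preparation. Per the submitters' processing notes, HISAT2 2.0.5 and the mm10 build were used. The authors deposited FPKM values per row for each library. For the program behind them, its annotation, strand use and any filter, the labels and notes give nothing, so overlapping genes or near-identical copies may share reads. Read counts were not used here, and depth is unknown.

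Rows were summed per gene identifier with pandas 2.3.3, and a gene was kept where 3 or more libraries reached 1 FPKM. limma 3.58.1 (R 4.3.3, trended variance) was fitted to log2(FPKM + 1) of all 9 libraries with 3 group means and 6 residual degrees of freedom. Genes are called at a two-sided Benjamini-Hochberg adjusted p below 0.05 over all 14535. In simulated data 200 of 14535 genes were changed, all drawn from genes averaging 5 FPKM or more. Noise was independent, and all other genes had equal group means. There 91% of 2-fold and 98% of 4-fold changes were recovered, with 12 false calls. These rates do not cover lower genes, or a comparison in which 56.6% of genes were called.

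The comparison, the 120 classes and the marker lists were chosen with earlier results of these data known. The name patterns of 2 classes were corrected after the files were seen, and motifs and subsets were chosen after class results. Each described class names up to 4 called members with the largest change and 5 FPKM or more in the higher group. The genome-wide lists hold the 12 highest and 12 lowest such genes whose groups do not overlap, without ovulatory markers and provisional names. Gene positions are from GENCODE M21 (mm10) and promoter windows from RefSeq (GRCm38.p6), matched by symbol. The 15 alternatives changed the pseudocount, filter, scaling, row summing, the libraries fitted, the replicate block, or left out 1 library.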

Additional observations from a re-analysis of the deposited data

How the results depend on the processing

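All 30 alternative counts of genes higher or lower were within 1.5 times the main count. For the 53 described classes 776 of 795 alternative counts did so, and for named genes 3421 of 3449 values kept direction and side of the threshold. Scaling to the mean sum gave 3503 genes higher and 4714 lower, with 42.6% of calls higher in place of 50.8%, and moved the median log2 change of all genes to −0.09. It left 13 ribosome biogenesis factors, 3 CCT or prefoldin genes and 6 TNF family genes higher. Quantile normalization left 4 CCT or prefoldin genes and 16 proteasome genes higher. A filter of 5 FPKM, which tests fewer genes, left 5 integrins, 4 intermediate filament genes, 7 interleukin genes, 6 TNF family genes, 9 neuropeptide genes, 5 dual-specificity phosphatases and 8 oocyte markers higher, and 6 cytochromes P450 lower. Without a filter 12 intermediate filament genes were higher. With the most abundant row alone 10 interleukin genes and 3 septins were higher, and *Sept9* turned to −0.23. Leaving out 1 library gave 17 to 23 ribosome biogenesis factors and 4 to 6 CCT or prefoldin genes higher, and 3593 to 3926 genes higher and 3532 to 3772 lower in all. The cause of these changes was not tested beyond the tested gene numbers.

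With the replicate number as a block 4090 genes were higher and 3999 lower. Same-numbered libraries had correlations of deviations of 0.0457, 0.112 and 0.147, and the replicate 1 library at 6 h correlated better with replicate 2 at 0 h (0.0585), so the numbers were not taken as pairs. Depth is unknown, so the precision of low values cannot be given.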
